A study of Camelus dromedarius with 4 samples.

Results

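Receptors for neuropeptides and peptide hormones were compared between winter and summer in the supraoptic nucleus of the dromedary camel. The set was 44 genes chosen by name, covering receptors for galanin, neuropeptide Y, somatostatin, neurotensin, melanocortins, cholecystokinin, PACAP and VIP, ghrelin, growth hormone, prolactin, leptin, relaxins, natriuretic peptides, endothelin, bradykinin, kisspeptin, neuromedin U, neuropeptide FF, GLP-1, calcitonin and parathyroid hormone, with the receptor activity-modifying proteins. The deposited table lists 18152 gene symbols, of which 16053 have a mean for each season, and 39 of the 44 receptors are among these. GALR2, MC3R and VIPR1 have a row without season means, and CALCRL and SSTR4 have no row, so these 5 were not analysed here.

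The animals were healthy, hydrated, age-matched adult male dromedaries of the Tergui breed, with no experimental treatment in either season. RNA from the snap-frozen nucleus was sequenced in 2 winter and 2 summer libraries, numbered 2 and 3 in winter and 1 and 2 in summer. All winter animals were killed on 1 day at El Oued and all summer animals on 1 day at Ouargla, so season, place and day cannot be told apart. Per the study's methods the tissues came from separate camels, and p-values measure the spread between these libraries.

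The supraoptic nucleus holds magnocellular neurones that make vasopressin and oxytocin, together with glia and a dense capillary bed. Most of the receptors described here are G protein-coupled receptors, through which a peptide changes cyclic AMP, calcium or potassium currents in the cell that carries them. The growth hormone, prolactin and leptin receptors instead signal through Janus kinases and STAT proteins, and 2 of the natriuretic peptide receptors, NPR1 and NPR2, are enzymes that make cyclic GMP. The tissue was bulk, so fewer cells of a type and less RNA per cell cannot be told apart.

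The libraries held 4379162 to 6902037 reads on 64989 gene models. Named genes were available only as season means of size-factor-normalized counts, and each mean is a sum of whole reads from 2 libraries, each read worth a fixed amount. Solving for those reads gave the value in each library for 37 of the 39 receptors with means. The solved libraries carry no replicate number, so they are called winter A (size factor 1.33), winter B (0.946), summer A (0.922) and summer B (0.877). Values below are normalized reads, which are counts divided by these factors without scaling for transcript length, so they are compared between libraries and not between genes. A library with 0 reads allows up to 3 reads by counting error alone, which is 2.26 to 3.42 normalized reads. Of 8 markers listed for magnocellular neurones 6 had season means, summing to 1597 normalized reads in summer and 1622 in winter. AVP, which encodes vasopressin, and SYT4 had none. Most of each sum came from CACNA1A (737 in summer, 832 in winter) and OXT, which encodes oxytocin (592 and 621). CACNA1A encodes a calcium channel that is not particular to these neurones, so the sums do not measure magnocellular content. The listed markers with library values summed to 251 and 87.8 in winter A and B, and to 248 and 288 in summer A and B. All 10 markers of the anterior pituitary also had season means, summing to 961 in summer and 1549 in winter. Without GH1 the other 9 summed to 497 in summer and 417 in winter.

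The libraries of a season stood apart from each other. Over the 7641 symbols tested, 34.4% differed by more than 2-fold between summer A and summer B, and 16.8% between winter A and winter B. Among the 24 receptors tested these shares were 54.2% (13 receptors) and 37.5% (9 receptors). Receptor results that rest on 1 library are given below with and without it.

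Winter and summer were compared by the quasi-likelihood test of edgeR on the recovered reads of all 7641 symbols that had a single solution and reached a mean of 10 in winter or in summer. Of the 26 receptors with such a mean 24 could be tested, and ADCYAP1R1 and CALCR had several solutions. Only PTH1R, the receptor for parathyroid hormone and parathyroid hormone-related protein, passed the rule of the study, an unadjusted p under 0.05 with more than a 2-fold difference. That is 1 of 24 receptors (4.17%), against 1.68% of all symbols tested. PTH1R entered the test through its winter mean alone (13.4, against 0.570 in summer), and when both seasons had to reach a mean of 10 it was not tested and 0 of 16 receptors passed, against 1.17% of symbols. At a Benjamini-Hochberg adjusted p under 0.05, edgeR called 0 of the 24 receptors and 0% of all symbols, although 1 receptor and 152 symbols had an unadjusted p under 0.05. DESeq2 and edgeR's exact test also called 0 receptors at the adjusted threshold and 1 symbol each. The fitted log2 fold change, winter over summer, was above 0 in 14 receptors and below 0 in 10, with a median of 0.17 against -0.11 over all symbols tested.

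Both libraries of a season lay on 1 side of both libraries of the other in 9 of the 24 receptors (37.5%), against 30.5% of all symbols. CCKBR, GALR3, KISS1R, NPR1, NPR2 and PTH1R were the higher ones in winter, and EDNRA, GHR and NPR3 the higher ones in summer. Season means lay more than 2-fold apart in 5 receptors (20.8%), CCKBR, EDNRA, NPR2, PTH1R and SSTR1, against 11.9% of all symbols. The share of receptors whose seasons did not overlap was thus near the background.

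**Figure D1:**
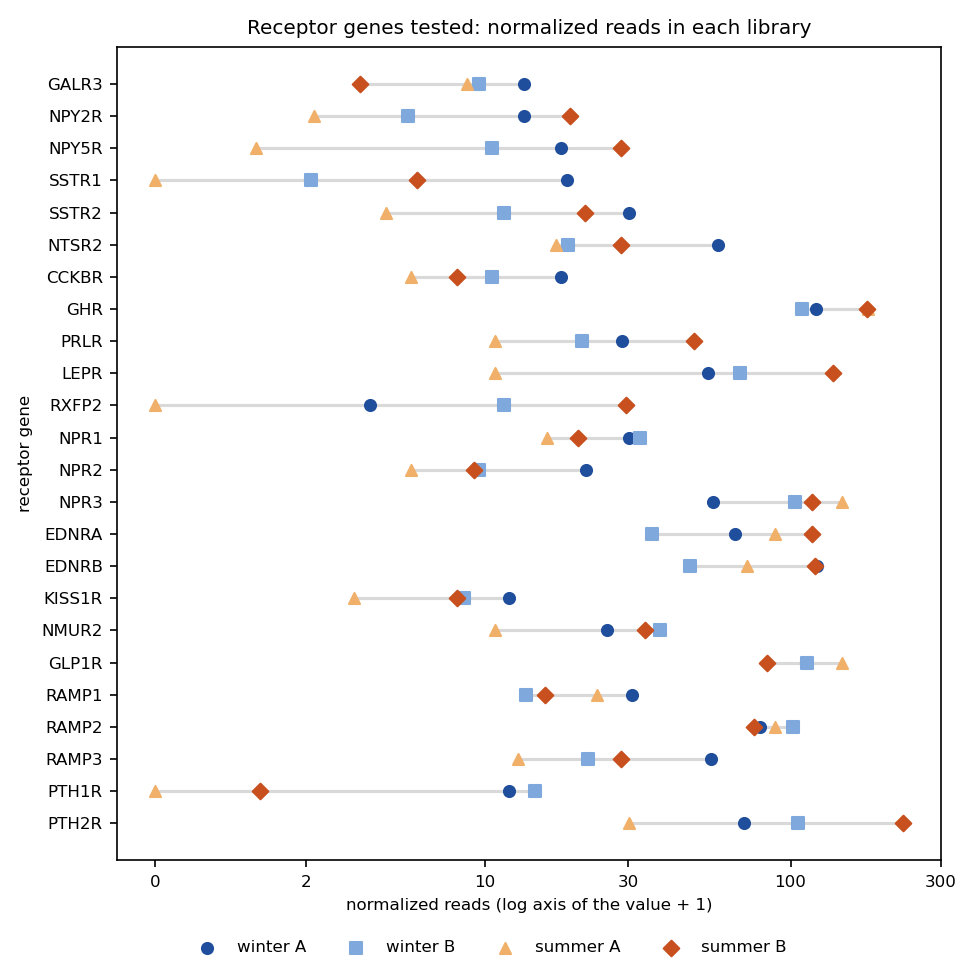
Normalized reads of the 24 tested receptors in winter A, winter B, summer A and summer B, on a log axis of the value plus 1, where each point is 1 library and each grey line spans the libraries. The winter points of PTH1R lie at 12.1 and 14.8 and its summer points at 0 and 1.14, while LEPR, NPY5R and RXFP2 have their lowest and highest values both in summer, and the summer points of GHR lie on each other.

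PTH1R is a receptor that raises cyclic AMP when parathyroid hormone or its related protein binds. It had 12.1 and 14.8 normalized reads in winter A and B, and 0 and 1.14 in summer A and B. Both winter libraries were above both summer libraries, at 30 reads in winter in all and 1 in summer. The ratio of winter to summer was 23.8, with a counting interval from 3.95 to 970. The fitted log2 fold change was 4.31 (SE 1.43, n = 2 per season, unadjusted p = 0.0173, adjusted p = 0.982 by edgeR's quasi-likelihood test). PTH1R stayed past the rule of the study with each library left out, at a log2 fold change of 3.42 without summer A and 6.84 without summer B. Its adjusted p ranged from 0.0650 to 1.00 over all alternatives.

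Its paralogue PTH2R, the receptor for tuberoinfundibular peptide of the hypothalamus, had 70.9 and 106 normalized reads in winter A and B, and 30.4 and 227 in summer A and B. The lowest and the highest value were both summer libraries, and both winter libraries lay between them. Summer B was 7.47 times summer A, with a counting interval from 5.01 to 11.5. The seasons differed by a log2 fold change of -0.55 (SE 0.76, unadjusted p = 0.493), which was 1.53 without summer B and -1.36 without summer A, so the direction was set by 1 library. Of the ligands, PTH was read 3 and 6 times in winter A and B and 12 times in each summer library (log2 fold change -1.70, unadjusted p = 0.110). For PTHLH, winter A and B gave 22 and 9 reads and summer A and B gave 0 and 14 (0.77, unadjusted p = 0.522). PTH2, which encodes the tuberoinfundibular peptide, was read 1 and 2 times in winter and 0 times in both summer libraries. PTH and PTHLH did not pass the test, and PTH2 was under the minimum mean and was not tested.

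**Figure D2:**
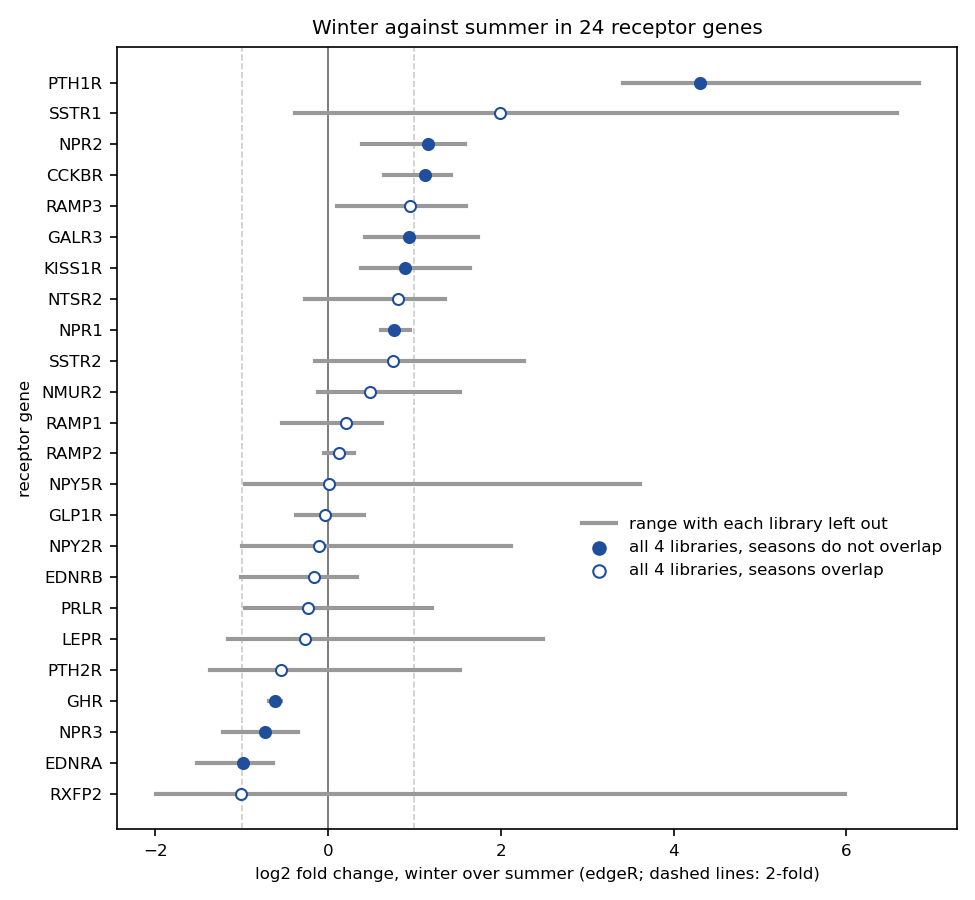
Fitted log2 fold change, winter over summer, of the 24 tested receptors, where points are fits to all 4 libraries (filled where the seasons do not overlap) and grey bars span the fits with each library left out. The bar of PTH1R runs from 3.42 to 6.84 and does not reach 0, whereas the bar of RXFP2 runs from -2.0 to 5.98.

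None of the natriuretic peptide receptors passed the test. NPR1 and NPR2 are guanylyl cyclases that answer atrial and C-type natriuretic peptide, and NPR3 lacks the cyclase and takes the peptides up for clearance. NPR1 had 30.2 and 32.8 normalized reads in winter A and B, against 16.3 and 20.5 in summer A and B (log2 fold change 0.77, SE 0.61, unadjusted p = 0.244). Neither summer library reached either winter library, and the fold change stayed between 0.61 and 0.95 with each library left out. NPR2 had 21.9 and 9.52 in winter against 5.42 and 9.12 in summer (1.16, SE 0.88, unadjusted p = 0.227). Winter B and summer B hardly differed, and the distance between the seasons lay mostly in winter A, without which the fold change was 0.39.

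NPR3 had 56.6 and 104 normalized reads in winter A and B, against 145 and 117 in summer A and B (log2 fold change -0.73, SE 0.40, unadjusted p = 0.110). Its summer libraries were both above its winter libraries, with a range of -1.21 to -0.34 over the fits with each library left out. The lower end, without winter B, was past the rule of the study. A share of reads within a library does not depend on the scaling between libraries. NPR3 made up 52.1% of the NPR1, NPR2 and NPR3 reads in winter A (exact binomial interval 43.6% to 60.5%) and 71.0% in winter B (62.7% to 78.4%). In summer it made up 87.0% in summer A (80.7% to 91.9%) and 79.8% in summer B (71.9% to 86.4%). The share was 61.5% ± 13.4 (SD, n = 2) in winter and 83.4% ± 5.07 (SD, n = 2) in summer, a difference of -21.9 percentage points. The 2-sided exact permutation test gave p = 0.333, the smallest p that 2 against 2 libraries allow, and this share and the next were chosen after the values had been seen. NPR3 was higher in both summer libraries, and NPR1 and NPR2 in both winter libraries. The separation of the NPR3 share and its p were thus already fixed by those values and are not separate support. Intervals cover counting error only.

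Endothelin receptors are found on vascular smooth muscle, endothelium and astrocytes, with EDNRA the receptor that constricts vessels and EDNRB also clearing endothelin. EDNRA had 66.4 and 36.0 normalized reads in winter A and B, and 88.9 and 117 in summer A and B. Both summer libraries were above both winter libraries. The log2 fold change was -0.99 (SE 0.43, unadjusted p = 0.0507) and ranged from -1.52 to -0.63 with each library left out, past the rule of the study without winter A and without summer A. EDNRB had 122 and 47.6 in winter and 72.7 and 120 in summer, with the seasons overlapping (-0.16, SE 0.50, unadjusted p = 0.756). Within the EDNRA and EDNRB reads, EDNRA made up 35.3% (29.4% to 41.6%) in winter A and 43.0% (31.9% to 54.7%) in winter B. In summer A and B it made up 55.0% (46.7% to 63.2%) and 49.5% (42.5% to 56.5%). The mean share was 39.2% ± 5.44 (SD, n = 2) in winter and 52.3% ± 3.90 (SD, n = 2) in summer, a difference of -13.1 percentage points (2-sided exact permutation p = 0.333, again the smallest possible). BDKRB2, the bradykinin receptor that dilates vessels, was read 3 and 0 times in winter A and B and 6 and 1 times in summer A and B.

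Markers of mural cells, which are the pericytes and smooth muscle cells of vessels, were measured beside these receptors. All 10 had season means, summing to 1013 normalized reads in summer and 1035 in winter, with 5 higher in each season and none at 0 in a season. The 6 with library values summed to 307 and 302 in winter A and B, and to 483 and 365 in summer A and B. Both summer sums were higher, as for EDNRA, but the genes differed. Both summer libraries were above both winter libraries for ABCC9, ACTA2 and RGS5. For CNN1 and KCNJ8 both winter libraries were above both summer libraries, and for TAGLN the seasons overlapped. The part of mural cells in the EDNRA values was not tested.

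**Figure D3:**
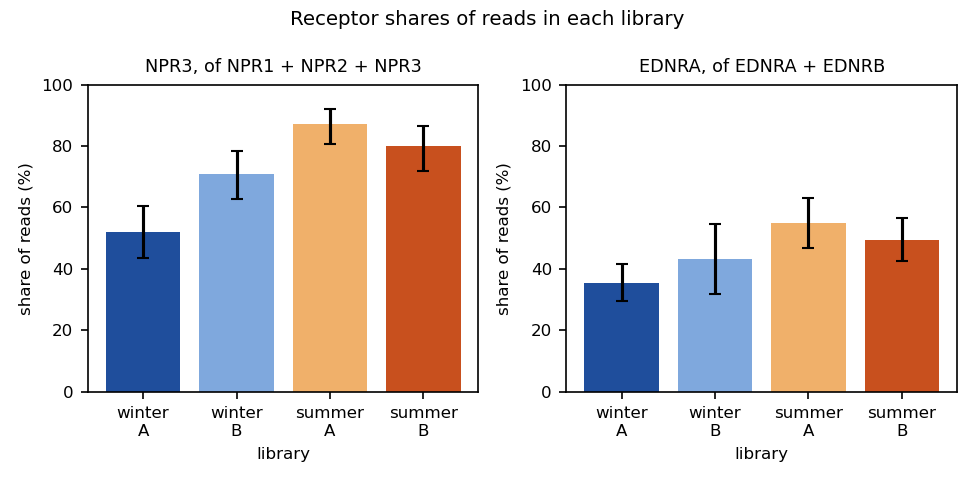
Share of reads, in percent, that NPR3 takes of NPR1, NPR2 and NPR3 (left) and EDNRA takes of EDNRA and EDNRB (right) in each library, with bars from 0 and exact 95% binomial intervals for counting error. Both summer bars are above both winter bars in each panel, at 79.8% and 87.0% against 52.1% and 71.0% for NPR3. For NPR3 this order was already fixed by the values of NPR1, NPR2 and NPR3.

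Among the cytokine-type hormone receptors, GHR, through which growth hormone acts, had the closest libraries of any receptor tested in summer. It had 121 and 109 normalized reads in winter A and B, and 176 in each of summer A and B. Both summer libraries were above both winter libraries. The log2 fold change was -0.61 (SE 0.32, unadjusted p = 0.0932) and stayed between -0.69 and -0.54 with each library left out. PRLR, the prolactin receptor, had 28.7 and 21.2 in winter and 10.8 and 49.0 in summer (-0.24, unadjusted p = 0.765). LEPR, through which leptin reports fat stores to the hypothalamus, had 54.3 and 68.7 in winter and 10.8 and 137 in summer (-0.26, SE 0.85, unadjusted p = 0.768).

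For LEPR and PRLR both winter libraries lay between the summer libraries. LEPR in summer B was 12.6 times summer A (counting interval 6.63 to 27.0). The log2 fold change of LEPR was 2.49 without summer B and -1.15 without summer A, and it passed the rule of the study in either direction. Without summer B it was the only receptor past an adjusted p of 0.05, at which 226 symbols passed in all. The hormones of these receptors that the pituitary makes were also counted, and are named here after their values were seen. GH1, growth hormone, had season means of 464 in summer and 1132 in winter, and PRL, prolactin, 213 and 170. Library values of 8 pituitary markers summed to 183 and 311 in winter A and B. In summer A and B they summed to 177 and 392. The summer B sum was the highest, as for LEPR and PRLR, but 236 of its 392 came from FSHB. Gene by gene, summer B was the highest library for FSHB and TSHB, and summer A for LHB. Winter B was the highest for CGA, TBX19, POU1F1 and PITX1, and winter A for GNRHR. The part of these hormones and markers in the receptor values was not tested. Choroid plexus markers, of which 7 of 10 had season means and TTR, KCNJ13 and STEAP1 had none, summed to 170 and 137 in winter and 132 and 280 in summer, and their part in LEPR and PRLR was not tested either.

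The calcitonin receptor CALCR, which binds calcitonin and, with a receptor activity-modifying protein, amylin, had season means of 1842 in winter and 2345 in summer, which is -0.35 as a log2 ratio. Its means had 99 solutions in winter and 84 in summer, so no library values or test can be given. The receptor activity-modifying proteins are single-pass partners that decide which peptide of the calcitonin family a receptor binds. RAMP2 had 80.0 and 102 normalized reads in winter A and B, and 88.9 and 76.4 in summer A and B (log2 fold change 0.13, SE 0.35, unadjusted p = 0.726), with the seasons overlapping. RAMP1 had 30.9 and 13.7 in winter and 23.9 and 16.0 in summer (0.21, unadjusted p = 0.779). RAMP3 had 55.8 and 22.2 in winter and 13.0 and 28.5 in summer (0.95, SE 0.70, unadjusted p = 0.216). RAMP1 and RAMP3 were highest in winter A, and for RAMP3 the fold change was 0.10 without winter A and 1.60 without summer B. Endothelial markers, on whose cells RAMP2 acts in adrenomedullin signalling, had season means for 9 of 10, summing to 1916 in summer and 1967 in winter. The 5 with library values summed to 259 and 223 in winter and 293 and 270 in summer.

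ADCYAP1R1, the receptor specific for PACAP, had season means of 271 in summer and 376 in winter. In summer it had 216 and 327 normalized reads in summer A and B, while its winter mean had 3 solutions. Tested with each of these in turn, the log2 fold change was 0.47 to 0.48 and the unadjusted p 0.234 to 0.365, and the seasons did not overlap in 1 of the 3. GLP1R, through which glucagon-like peptide 1 acts on hypothalamic neurones, had 112 and 113 in winter A and B, and 145 and 84.3 in summer A and B. The winter libraries lay together between the summer libraries (log2 fold change -0.033, SE 0.38, unadjusted p = 0.933).

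The remaining receptors tested bind neuropeptides and relaxins, with none past the test. GALR3, an inhibitory galanin receptor, had 13.6 and 9.52 normalized reads in winter A and B, and 8.68 and 3.42 in summer A and B (log2 fold change 0.93, SE 0.91, unadjusted p = 0.338). CCKBR, the brain cholecystokinin receptor, had 18.1 and 10.6 in winter and 5.42 and 7.98 in summer (1.13, SE 0.86, unadjusted p = 0.228). KISS1R, the kisspeptin receptor, had 12.1 and 8.46 in winter and 3.25 and 7.98 in summer (0.90, unadjusted p = 0.367). In these 3 genes the seasons did not overlap, but the nearest libraries lay close together at 8.46 and 7.98 for KISS1R and at 9.52 and 8.68 for GALR3.

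The somatostatin receptors SSTR1 and SSTR2, which inhibit hormone release and firing, were highest in winter A and lowest in summer A. SSTR1 had 18.9 and 2.12 normalized reads in winter A and B, and 0 and 5.70 in summer A and B (log2 fold change 1.99, SE 1.44, unadjusted p = 0.204). SSTR2 had 30.2 and 11.6 in winter and 4.34 and 21.7 in summer (0.75, SE 0.90, unadjusted p = 0.432). Without winter A the fold change was -0.38 for SSTR1 and -0.14 for SSTR2, and without summer B it was 6.59 and 2.27. NTSR2, a neurotensin receptor of astrocytes, had 58.9 and 19.0 in winter and 17.4 and 28.5 in summer (0.81, unadjusted p = 0.286). Winter A alone stood above the other libraries of NTSR2, and without it the fold change was -0.26.

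NPY2R and NPY5R, which bind neuropeptide Y and reduce or raise feeding respectively, were lowest in summer A and highest in summer B. NPY2R had 13.6 and 5.29 normalized reads in winter A and B, and 2.17 and 19.4 in summer A and B (log2 fold change -0.099, unadjusted p = 0.928). NPY5R had 18.1 and 10.6 in winter and 1.08 and 28.5 in summer (0.014, unadjusted p = 0.989). Without summer B these fold changes were 2.12 and 3.62, and at their lowest they were -0.99 without winter A for NPY2R and -0.96 without summer A for NPY5R. NMUR2, a neuromedin U receptor, had 25.7 and 38.1 in winter and 10.8 and 34.2 in summer (0.49, unadjusted p = 0.507). RXFP2, a receptor of the relaxin family, had 3.77 and 11.6 in winter and 0 and 29.6 in summer (-1.0, SE 1.32, unadjusted p = 0.470), and its fold change was 5.98 without summer B.

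The 13 receptors with a mean under 10 in both seasons were GALR1, NPY1R, SSTR3, SSTR5, NTSR1, MC4R, CCKAR, VIPR2, GHSR, RXFP1, RXFP3, BDKRB2 and NPFFR2. Their higher season means ran from 1.13 to 7.78 normalized reads, and no library held more than 12 reads of any of them. Summed over the 13, there were 70 and 38 reads in winter A and B, and 24 and 63 in summer A and B. In summer A 7 of the 13 had 0 reads, against 1 in summer B, 2 in winter A and 3 in winter B. GHSR, the ghrelin receptor, had 3 reads in winter A and 0 in the other libraries, which is at the limit that a count of 0 allows. MC4R, the melanocortin receptor that restrains feeding, had 2 reads in each winter library and 0 and 1 in summer A and B. VIPR2, a VIP receptor, was read 3 and 9 times in winter and 0 and 3 times in summer, a ratio of 3.17 with a counting interval from 0.855 to 17.5. NPY1R was read 10 and 0 times in winter and 7 times in each summer library. Differences between the seasons were not detectable in these genes at this depth.

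**Figure D4:**
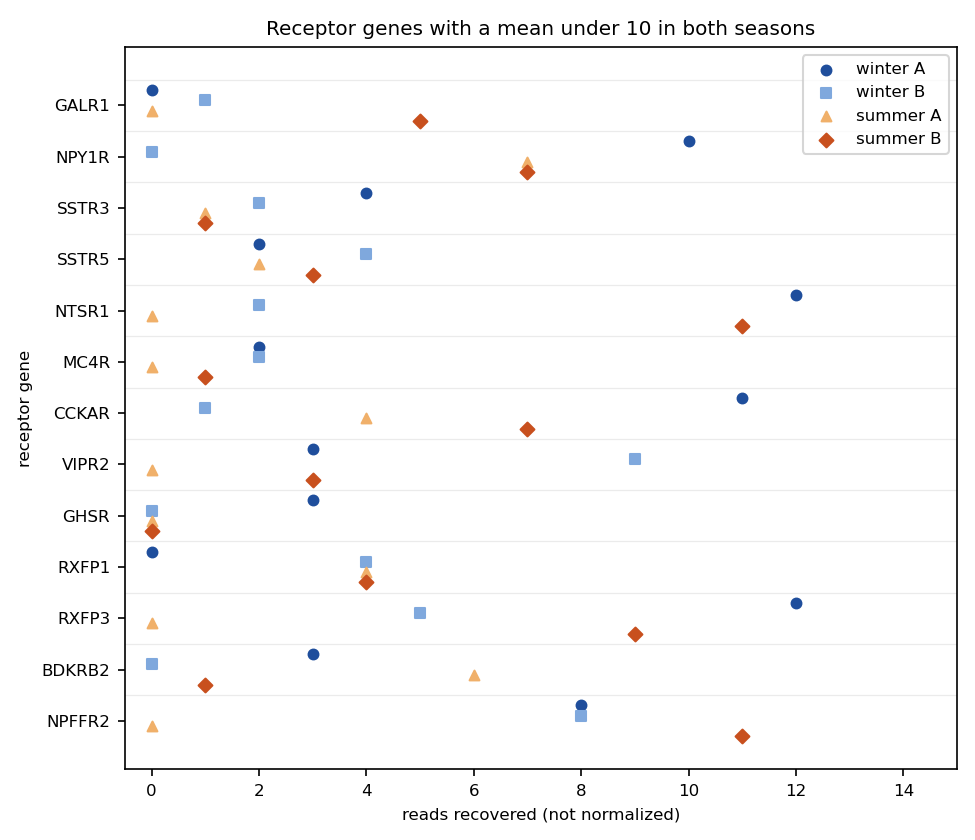
Reads, not normalized, of the 13 receptors with a mean under 10 in both seasons, where each point is 1 library. In summer A 7 of the 13 sit at 0, while NTSR1, RXFP3 and NPFFR2 reach 9 to 11 reads in summer B.

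Across the receptors, summer B was more often above summer A than the reverse. Of the 26 receptors with at least 10 reads in summer, 12 had more in summer B and 1 more in summer A beyond counting error. In winter 10 of the 30 with as many reads had more in winter A and 3 more in winter B. Such counts were not made over all symbols, which leaned the same way. Over all symbols tested, the median log2 ratio of summer B to summer A was 0.28 (quartiles -0.30 and 1.08). That of winter A to winter B was 0.056 (quartiles -0.36 and 0.52), each with 1 added to the normalized reads. Because low counts scatter more, the receptors were set against symbols of the same broad group, with a higher season mean under 50 or of at least 50. Levels within a group were not matched further. Summer B was more than 2-fold above summer A in 10 of the 16 receptors with a higher season mean under 50 (62.5%), against 40.8% of such symbols. It was so in 2 of the 8 receptors at or above 50 (25%), LEPR and PTH2R, against 16.2% of such symbols.

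Winter A was more than 2-fold above winter B in 7 of the 16 receptors under 50 (43.8%), against 15.8% of such symbols, namely NPR2, NPY2R, NTSR2, RAMP1, RAMP3, SSTR1 and SSTR2. It was so in 1 of the 8 at or above 50 (12.5%), EDNRB, against 6.58%. In 12 of the 24 receptors winter A was above winter B and summer B above summer A at once (50%), against 34% of all symbols tested. Of the 37 receptors with library values, 9 had 0 reads in summer A and at least 1 in summer B (24.3%), against 13.3% of 9882 symbols. No receptor had the reverse, which 1.33% of the symbols had. Neither these shares nor the 50% above were matched by level, although low counts scatter more. The receptors share their libraries, so these counts describe 4 libraries and are given without a test.

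**Figure D5:**
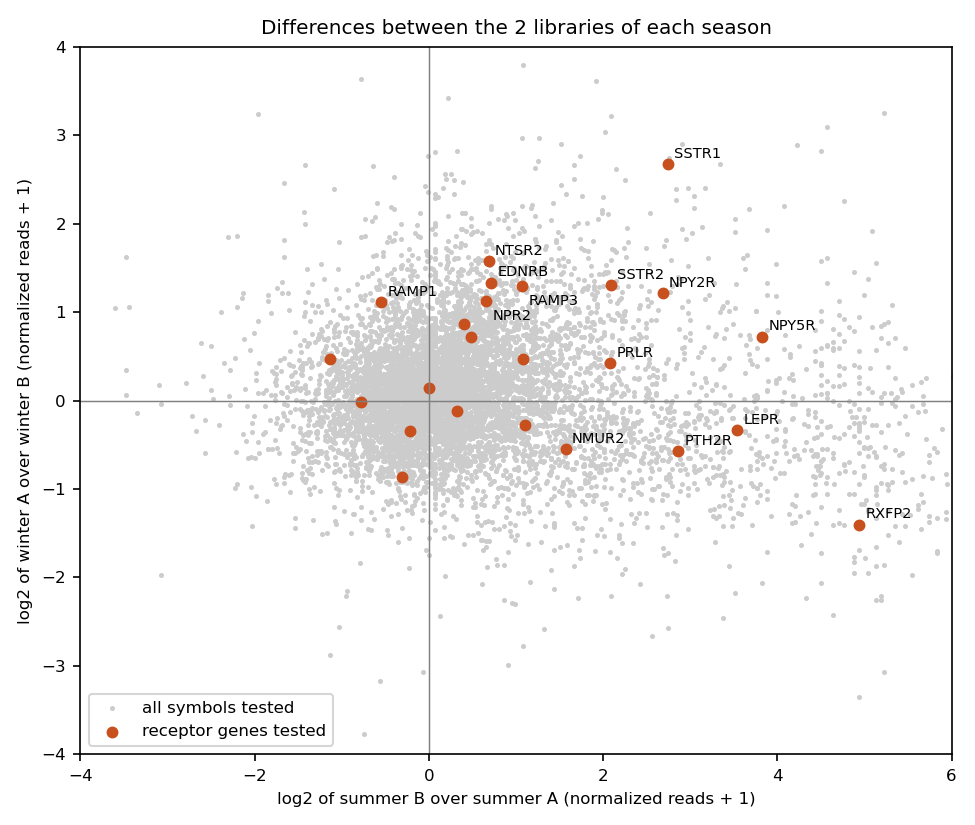
Log2 ratio of summer B to summer A (horizontal) and of winter A to winter B (vertical), each with 1 added to the normalized reads, for the 24 tested receptors in orange and all symbols tested in grey. Of the 7641 symbols 38 lie outside the axes, and the receptors spread to the right, where RXFP2, NPY5R, LEPR, PTH2R, SSTR1 and NPY2R sit, and upwards, where SSTR1 and NTSR2 sit.

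These differences between libraries of the same season carried into the comparison of the seasons. Without summer B, 8 receptors were past the rule of the study, all higher in winter, against 15.2% of all symbols. They were LEPR, NPY5R, PTH1R, PTH2R, RAMP3, RXFP2, SSTR1 and SSTR2. Without summer A there were 5, namely EDNRA, LEPR, PTH1R, PTH2R and RXFP2, of which PTH1R was higher in winter, against 14.5% of all symbols. LEPR, PTH2R and RXFP2 thus passed in opposite directions. Without winter A there were 2, EDNRA and PTH1R, against 0.458% of all symbols. Without winter B there were 2, NPR3 and PTH1R, against 0.654%. The direction of the fold change stayed the same with each library left out in 10 of the 24 receptors. These were RAMP3 and the 9 whose seasons did not overlap, for which the lack of overlap already fixes the direction. Kept directions were not counted over all symbols.

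Astrocyte markers, of which 10 of 10 had season means, summed to 42818 normalized reads in summer and 27827 in winter, with 5 higher in each season. GFAP (25074 in summer, 14423 in winter) and S100B (11788 and 7490) made up most of each sum. The median log2 ratio, winter over summer, was 0.014 over the 10 markers. The 4 with library values did not follow that sum and came to 445 and 189 in winter A and B and to 153 and 392 in summer A and B. Of these AQP4, the water channel of astrocytes, was at 6.79 and 3.17 in winter and 9.76 and 10.3 in summer. It did not pass the rule of the study (log2 fold change -0.92, unadjusted p = 0.347 by edgeR's quasi-likelihood test). The other 3 went the other way, with log2 fold changes of 0.29 for ALDH1L1, 0.15 for SLC1A3 and 0.40 for SOX9. The magnocellular markers with library values, also 4, summed to 251 and 87.8 in winter and 248 and 288 in summer. Among the magnocellular markers PDYN, the dynorphin precursor, passed the rule of the study and was lower in winter (log2 fold change -1.76). Among 10 meningeal fibroblast markers 9 had season means, and the sums of their library values were 431 and 379 in winter and 464 and 553 in summer. COL1A2, a fibrillar collagen chain and 1 of 6 tested, was past the rule and lower in winter (log2 fold change -1.02). Its unadjusted p was 0.0321 by edgeR's quasi-likelihood test (adjusted p 0.982) and 0.0682 by DESeq2. Neuron markers had season means in 8 of 10, of which 7 were higher in winter, and oligodendrocyte markers in 6 of 6, of which 5 were higher in winter. The part of any of these cell types in the receptor values was not tested.

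The ligands of the receptors were followed in a list of 46 genes. Season means were given for 26 of them and 12 could be tested, of which 0 passed the rule of the study and 0 had an unadjusted p under 0.05 by edgeR's quasi-likelihood test. In fitted log2 fold change 6 were above 0 and 6 below, with a median of -0.057 against -0.11 over all symbols. The seasons did not overlap in 3 of the 12, against 30.5% of all symbols. Of 41 symbols of G proteins, arrestins, kinases, cyclases and other transducers and regulators of these receptors, 37 had season means and 12 could be tested. GRK2 and GRK3, without means, are also listed under their older symbols ADRBK1 and ADRBK2, which had them. None of the 12 passed the rule of the study or an unadjusted p under 0.05, with 9 above 0, 3 below and a median of 0.20, and the seasons did not overlap in 4 of them.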

How the data were processed

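RNA from 2 winter and 2 summer supraoptic nuclei was sequenced after ribosomal RNA depletion. The submitters' processing notes name TopHat, HTSeq, DESeq and edgeR, and versions and the strand setting are not given in the sources used here, so overlapping and antisense genes are uncertain. The authors deposited raw counts per gene model, aligned to their own assembly, without gene names, used here only for depth. On gene models lay 20.7% to 27.8% of the tallied alignments, and tally lines were left out. A second deposited table holds a signal per symbol, the mean of counts over DESeq size factors in each season, to 6 significant digits. Its columns of edgeR fold change and p-value were not used.

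Whole reads recovered from these means solved 16053 of 16053 symbols, 9882 with a single solution, and 4 symbols with a repeated name were left out. Several solutions begin at a mean of 100 in winter and 299 in summer, so the symbols tested favour low means. The reads were fitted with edgeR 4.0.16 in R 4.3.3 (glmQLFit with legacy set to FALSE, size factors as offsets, symbols reaching a mean of 10 in either season, common biological coefficient of variation 0.460) with Benjamini-Hochberg adjustment of p. The SE is the size of the log2 fold change over the square root of F. Alternatives were the exact test, DESeq2 1.42.0, other scalings and filters, fold thresholds and each library left out. Scripts were tested on simulated data. Intervals came from scipy 1.17.1 and figures from matplotlib 3.10.9. Receptors reaching that mean were named in full, and from the other lists genes past the rule of the study and ligands of receptors past it. Some further hormones and markers were named after their values were seen. The receptors and lists were chosen with earlier results of these data known.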

Additional observations from a re-analysis of the deposited data

How the results depend on the processing

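PTH1R was past the rule of the study in every setting that tested it. Those settings all draw on the same 30 winter reads and 1 summer read, so they are not separate support. When both seasons had to reach a mean of 10, PTH1R was not tested and 0 of 16 receptors passed (1.17% of symbols). With each library left out, which assumes that the lone library varies like the other season, 2 to 8 receptors passed the rule (0.458% to 15.2% of symbols) and 0 to 1 an adjusted p of 0.05 (0 to 257 symbols). The direction turned with 1 library left out in 14 receptors, whose log2 fold changes ran from -1.01 to 0.34 for EDNRB, -0.37 to 0.41 for GLP1R, -1.15 to 2.49 for LEPR, -0.11 to 1.53 for NMUR2, -0.99 to 2.12 for NPY2R, -0.96 to 3.62 for NPY5R, -0.26 to 1.36 for NTSR2, -0.96 to 1.2 for PRLR, -1.36 to 1.53 for PTH2R, -0.53 to 0.63 for RAMP1, -0.048 to 0.30 for RAMP2, -2.0 to 5.98 for RXFP2, -0.38 to 6.59 for SSTR1 and -0.14 to 2.27 for SSTR2. Values near 0 also turned with total counts as the scaling (GLP1R 0.030, NPY2R 0.017), with DESeq2 (NPY5R -0.038) and as the ratio of the deposited means (NPY5R -0.044). The median over receptors was -0.20 without winter A, 1.47 without summer B and 0.76 among symbols under 100 in both seasons, an alternative added after the data were seen. The cause was not tested. Turns of direction were not counted over all symbols. No paired analysis was possible because the seasons were sampled from different camels, killed on separate days at El Oued and Ouargla. A replicate number shared by the seasons does not pair animals, and the recovered reads carry no number. The 2 libraries per season limit every difference.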
